A study of Mus musculus with 38 samples.

Results

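The T cell genes described here are 8 genes that mark T lymphocytes, *Cd3d*, *Cd3e*, *Cd3g*, *Cd4*, *Cd8a*, *Cd2*, *Cd5* and *Zap70*, out of 19938 genes that could be named on the array. They were found by symbol in the annotation of the probe sets. Each of the 8 had exactly 1 probe set that carried its symbol and no other, so that no choice between probe sets was needed. All 8 members were measured in each of the 38 mice. The values are log2 signals after robust multi-array averaging (RMA), and a difference of 1 is a 2-fold change in signal.

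T cells read antigens through the T cell receptor, which has no signalling tail of its own and relies on the CD3 chains that surround it. CD3 chains are phosphorylated when the receptor binds, and the kinase ZAP-70 then docks on them and passes the signal on. CD4 and CD8 are the coreceptors that steer T cells to MHC class II and class I molecules and mark the helper and cytotoxic lineages, and immature T cells in the thymus carry both. In the thyroid, T cells are scattered in the normal gland and gather in autoimmune thyroiditis and around tumours.

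In FVB/N mice, the transgene was a human *BRAF* cDNA with the V600E change and a 2HA tag, driven by the thyroglobulin promoter of cattle, which is active in thyroid follicular cells, and 3 transgenic lines were kept. Status was called on RNA, so that *BRAF*(+) mice expressed the transgene and *BRAF*(-) mice did not, the latter being non-transgenic by genotype save for 1 *BRAF*(-) BHL mouse that carried the transgene without expressing it. The study puts it in its oldest age class, where mouse M_764, at 24 months, is the only *BRAF*(-) mouse. The labels do not give the line of each mouse. By the counts the study gives, *BRAF*(+) AT mice came mostly from line tg3, and *BRAF*(-) AT mice from tg2 and tg3. All *BRAF*(+) BHL mice came from tg3. *BRAF*(-) BHL mice came from all 3 lines, and BL (borderline lesion) and PTC (carcinoma) mice mostly from tg3 and otherwise from tg2. The make-up by line thus differed between groups that are compared below, and line was not in the models. One array was run per mouse, with RNA from a part of the gland that held pieces of both lobes, while histology was read on the other part. Groups were asymptomatic thyroids (AT) of 5 *BRAF*(-) mice aged 4 to 12 months and 5 *BRAF*(+) mice aged 7 to 11 months, benign hyperplastic lesions (BHL) of 4 *BRAF*(-) mice aged 6 to 24 months and 4 *BRAF*(+) mice aged 4 to 11 months, and, all *BRAF*(+), 10 borderline lesions (BL) aged 4 to 21 months and 10 papillary thyroid carcinomas (PTC) aged 6 to 21 months. There were 29 females and 9 males, and each group held both sexes. Each mouse was its own replicate. The mean of 9 genes of thyroid follicular cells lay between 8.37 and 10.15 in all mice, so the labelled tissue carried its defining markers. In whole glands, fewer T cells and less RNA per T cell cannot be told apart.

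The members lie on 5 chromosomes of the GRCm38.p6 assembly, and the 3 CD3 genes are neighbours on chromosome 9. *Cd3g* (chr9:44969572-44980431) and *Cd3d* (chr9:44981769-44987052) are transcribed away from each other with 1337 bases between them, and *Cd3e* (chr9:44998735-45009663) follows. *Cd4* (chr6:124864693-124888247) and *Cd8a* (chr6:71373427-71379171) share chromosome 6, and *Cd2* (chr3:101275908-101287939), *Cd5* (chr19:10718107-10739026) and *Zap70* (chr1:36761798-36782821) lie apart. The 3 CD3 genes are shown as neighbours. *Cd8a* is shown because its signal varied least with theirs once mouse M_946, described below, was left out. In the 37 mice then left, with each gene centred on its group means, Pearson's r was 0.90 for *Cd3e* and *Cd3g*. It was 0.68 for *Cd3d* and *Cd3e* and 0.60 for *Cd3d* and *Cd3g*. *Cd3e* and *Cd4*, on different chromosomes, had 0.87. Below are the RefSeq windows from 250 bases before to 50 bases after the annotated starts of the 3 CD3 genes and *Cd8a*. They are given 5′ to 3′ on the strand of the gene, and capitals mark matches on either strand to CTTTGA, the core of TCF and LEF sites, to GATAA, the core of GATA sites, and to TGTGGT, the core of RUNX sites, factors known for roles in T cells. No match overlapped another.
Cd3g, chr9:44980382-44980681 (-): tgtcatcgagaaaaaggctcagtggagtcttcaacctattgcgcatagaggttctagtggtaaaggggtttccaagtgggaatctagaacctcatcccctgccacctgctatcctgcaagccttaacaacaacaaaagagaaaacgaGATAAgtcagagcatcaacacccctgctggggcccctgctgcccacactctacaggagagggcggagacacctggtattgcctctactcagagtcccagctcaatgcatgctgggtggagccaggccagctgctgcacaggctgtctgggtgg
Cd3d, chr9:44981536-44981835 (+): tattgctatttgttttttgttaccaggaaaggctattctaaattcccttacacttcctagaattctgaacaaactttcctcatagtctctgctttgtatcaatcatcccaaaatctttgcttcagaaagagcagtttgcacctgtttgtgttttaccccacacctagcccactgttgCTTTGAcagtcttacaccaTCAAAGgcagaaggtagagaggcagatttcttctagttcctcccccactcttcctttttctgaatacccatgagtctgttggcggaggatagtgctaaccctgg
Cd3e, chr9:45009562-45009861 (-): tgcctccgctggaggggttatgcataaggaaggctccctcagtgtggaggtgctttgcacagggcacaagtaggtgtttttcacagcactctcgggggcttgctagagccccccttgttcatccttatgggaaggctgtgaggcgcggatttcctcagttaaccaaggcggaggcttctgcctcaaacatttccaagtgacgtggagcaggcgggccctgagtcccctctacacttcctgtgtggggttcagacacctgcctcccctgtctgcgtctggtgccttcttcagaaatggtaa
Cd8a, chr6:71373177-71373476 (+): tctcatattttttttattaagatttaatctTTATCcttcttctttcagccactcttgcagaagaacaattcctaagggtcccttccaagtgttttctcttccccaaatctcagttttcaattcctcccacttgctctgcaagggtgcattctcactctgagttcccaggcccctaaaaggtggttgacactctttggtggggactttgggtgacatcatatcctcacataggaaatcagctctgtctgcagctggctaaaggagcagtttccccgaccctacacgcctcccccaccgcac
Windows were found for 6 members, 8 windows in all because *Zap70* had 3. CTTTGA was in 2 of these 8 windows and in 16.0% of 32851 windows of the same length over all genes. GATAA was in 2 of the 8 and in 25.4% of all, and TGTGGT in 1 of the 8 and in 16.8% of all. The matches are letters in these windows and no statement on binding.

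One mouse stood apart from all others. Mouse M_946, an 11-month-old female with a *BRAF*(-) BHL, had the highest signal of the 38 mice for 8 of 8 members, in each case more than 1 log2 unit above the next mouse. *Cd8a*, which encodes the alpha chain of CD8, was at 9.62 in mouse M_946 and between 4.75 and 5.71 in the other 37 mice. *Cd3g*, the gamma chain of CD3, was at 10.58 against 4.74 to 8.32, and *Cd4*, the coreceptor of helper T cells, at 9.57 against 5.43 to 7.48. *Cd3e*, the epsilon chain, was at 10.18 against 6.06 to 8.25, and *Cd5*, which restrains signals of the receptor, at 8.34 against 5.44 to 6.81. The gap to the next mouse was narrower for *Cd2*, an adhesion receptor, with 7.83 against at most 6.83, and for *Zap70*, with 6.36 against at most 5.34. *Cd3d*, the delta chain, was at 6.92 against 4.09 to 5.42. Over all 19938 genes, mouse M_946 was the highest mouse for 994 genes (4.99%) and led by more than 1 log2 unit for 109 genes (0.547%).

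**Figure D1:**
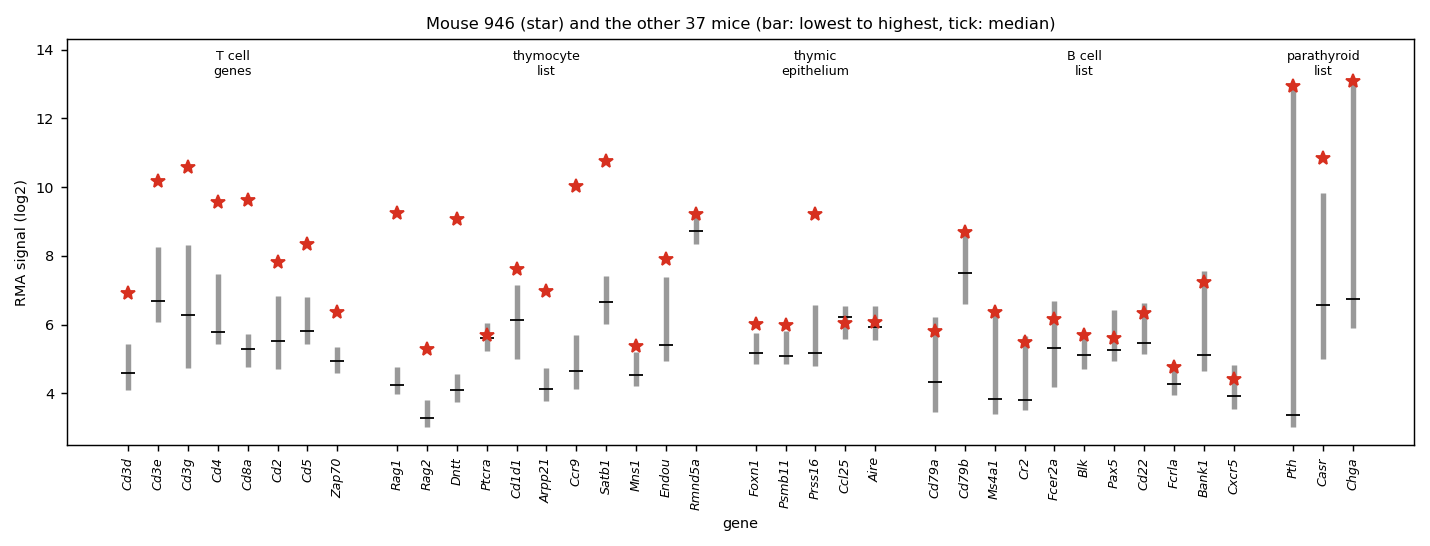
Log2 RMA signal of single genes (horizontal axis) in mouse M_946 (star) and in the other 37 mice (grey bar from lowest to highest, tick at the median), for the T cell genes and 4 other lists. The star lies above the bar for all 8 T cell genes and for 10 of 11 genes of the thymocyte list.

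Genes of immature T cells were also high in this mouse. Of 11 genes of a thymocyte list, 10 were highest in mouse M_946, 6 of them by more than 1 log2 unit. *Rag1*, which cuts the receptor genes for rearrangement, was at 9.25 against 3.97 to 4.75 in the other 37 mice, and *Dntt*, the polymerase that adds bases at the junctions, at 9.07 against 3.75 to 4.56. *Ptcra*, the surrogate alpha chain of the early receptor, was the exception at 5.70 against 5.22 to 6.05. The mean of the list was 7.93 in mouse M_946 and 5.04 to 5.46 in the others, so that the 2 sets of values did not come near each other.

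The widest gap of all named genes was that of *Themis*, needed for the selection of thymocytes. It led the next mouse by 4.54 log2 units and was followed by *Dntt*, *Rag1*, *Ccr9*, a homing receptor of thymocytes, and *Cd8b1*, the beta chain of CD8. Of 5 genes of thymic epithelium, 3 were highest in mouse M_946, but just 1 by more than 1 log2 unit. This was *Prss16*, a thymus-specific protease, at 9.21 against 4.79 to 6.58. *Foxn1* at 6.01 against at most 5.75 and *Psmb11* at 5.98 against at most 5.82 led narrowly. *Ccl25* at 6.04 and *Aire* at 6.08 lay within the range of the other mice.

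Other cell types gave a mixed picture in mouse M_946. Of 18 other genes of T cell receptor signalling and the T cell surface, 17 were highest in this mouse, as were 7 of 10 pan-leukocyte genes, 6 of 14 cytotoxic and NK genes and 3 of 11 B cell genes. The lead over the next mouse was more than 1 log2 unit for 14 of these 18, 1 of the 10 and 0 of the 14 genes. For the B cell genes it was at most 0.027, in *Blk*. None of 12 macrophage genes, of 11 genes of MHC class II and dendritic cells, of 7 plasma cell genes or of 9 thyroid follicular genes was highest in mouse M_946. The 3 parathyroid genes were highest in mouse M_946 too, with *Pth*, parathyroid hormone, at 12.95 against at most 12.87 in the other mice. *Chga* was at 13.10 against at most 13.00 and *Casr* at 10.85 against at most 9.84. High parathyroid signal was found in other mice without high T cell signal. In 7 other mice the mean of the parathyroid list lay between 9.79 and 11.86, and in those the mean of the 8 members lay between 5.22 and 5.85 and the mean of the thymocyte list between 5.14 and 5.40. What tissue of mouse M_946 carried these RNAs was not tested. The comparisons below were fitted with all 38 mice and again without this one.

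In the other 37 mice, the members differed in how widely they ranged. *Cd3g* spanned 3.58 log2 units, *Cd3e* 2.19, *Cd2* 2.13 and *Cd4* 2.05, whereas *Cd5* spanned 1.38, *Cd3d* 1.33, *Cd8a* 0.96 and *Zap70* 0.76. Next to mouse M_946 the same few mice were high for most members. BL mouse M_416 was among the 5 highest of the 37 for 8 of 8 members, *BRAF*(+) AT mouse M_1003 for 7 and *BRAF*(+) AT mouse M_948 for 5, and PTC mouse M_700 and BL mice M_772 and M_80 for 3 each.

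**Figure D2:**
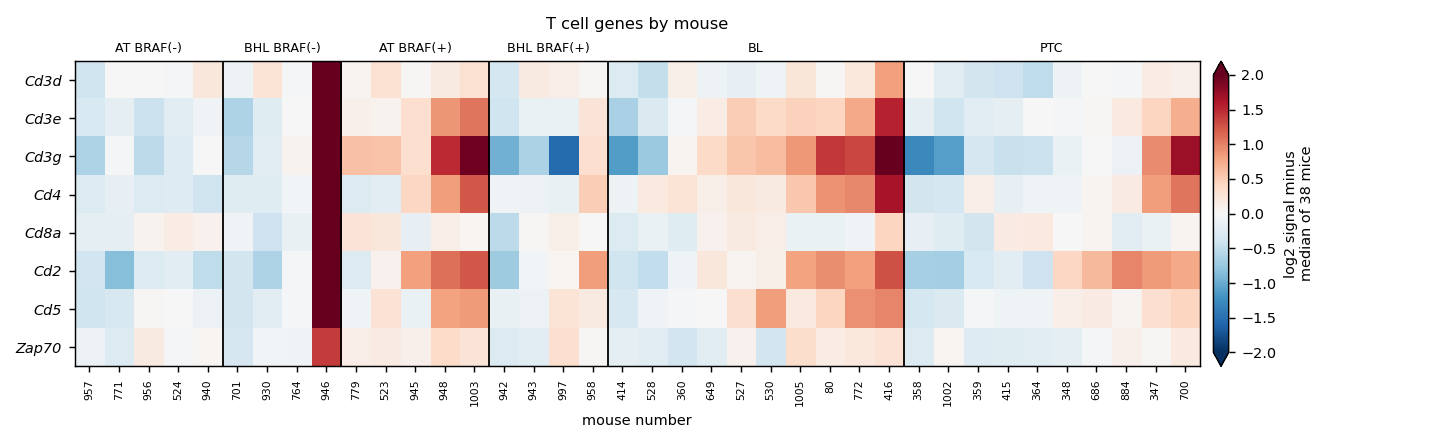
Log2 RMA signal of the 8 T cell genes minus the median of each gene over the 38 mice (colour, cut at 2 in either direction), for each mouse (columns, by mouse number), ordered within its group by the mean of the 8 genes. Mouse M_946 is dark red for nearly all genes, and mice M_1003 and M_416 end the *BRAF*(+) AT and BL groups at their high ends.

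The T cell receptor chains were followed through the 6 groups first. *Cd3e* signals in *BRAF*(-) AT were 6.27, 6.41, 6.50, 6.52 and 6.64, while *BRAF*(+) AT mice had 6.78, 6.82, 7.04, 7.59 and 7.77. In *BRAF*(-) BHL they were 6.09, 6.47, 6.72 and, in mouse M_946, 10.18, and in *BRAF*(+) BHL 6.31, 6.58, 6.58 and 6.97. In BL the lowest was 6.06, the median 7.12 and the highest 8.25, and in PTC 6.31, 6.69 and 7.44. All *BRAF*(+) AT mice thus lay above all *BRAF*(-) AT mice, as did 8 of 10 BL and 6 of 10 PTC. The *BRAF*(+) BHL overlapped both AT groups, while the *BRAF*(-) BHL lay below all *BRAF*(+) AT mice save for mouse M_946, which lay above them.

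*Cd3g* had the same order in AT with a wider step. Its signals were 5.68, 5.77, 6.02, 6.26 and 6.29 in *BRAF*(-) AT and 6.61, 6.86, 6.87, 7.78 and 8.23 in *BRAF*(+) AT. The *BRAF*(-) BHL were at 5.71, 6.08, 6.36 and 10.58 and the *BRAF*(+) BHL at 4.74, 5.33, 5.65 and 6.63. BL ran from 5.16 over a median of 6.87 to 8.32, and PTC from 5.00 over 6.05 to 8.00. Above the highest *BRAF*(-) AT mouse were 5 of 5 *BRAF*(+) AT, 8 of 10 BL, 2 of 10 PTC, 1 of 4 *BRAF*(+) BHL and 2 of 4 *BRAF*(-) BHL.

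*Cd3d* stayed in a narrow band outside mouse M_946. Its mean was 4.55 ± 0.23 (SD, n = 5) in *BRAF*(-) AT, 4.77 ± 0.13 (n = 5) in *BRAF*(+) AT and 4.60 ± 0.24 (n = 4) in *BRAF*(+) BHL. It was 4.63 ± 0.35 (n = 10) in BL and 4.46 ± 0.23 (n = 10) in PTC. In *BRAF*(-) BHL it was 5.21 ± 1.15 (n = 4), or 4.65 ± 0.20 (n = 3) without mouse M_946. *Zap70* had means from 4.81 ± 0.16 in *BRAF*(-) BHL without that mouse (n = 3) to 5.17 ± 0.11 in *BRAF*(+) AT (n = 5), and *BRAF*(-) BHL with it was at 5.20 ± 0.78 (n = 4).

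Of the coreceptors, *Cd4* was the most uniform in *BRAF*(-) AT, at 5.43, 5.55, 5.56, 5.56 and 5.66. In *BRAF*(+) AT it was 5.55, 5.62, 6.24, 6.66 and 7.07. BL ran from 5.72 over a median of 6.07 to 7.48, and PTC from 5.46 over 5.82 to 6.89. Every BL mouse was above every *BRAF*(-) AT mouse, as were 8 of 10 PTC, 4 of 4 *BRAF*(+) BHL, which were at 5.68, 5.70, 5.76 and 6.31, and 2 of 4 *BRAF*(-) BHL, which were at 5.58, 5.58, 5.77 and 9.57. Outside mouse M_946, all signals of *Cd8a*, *Cd3d* and *Zap70* lay below the array medians of 6.00 to 6.15. Of the members, only *Cd3e* and *Cd3g* had a mean above the median probe set. Small differences in *Cd8a*, *Cd3d* and *Zap70* are thus read at low signal. *Cd8a* had close means outside mouse M_946. They were 5.27 ± 0.16 (SD, n = 5) in *BRAF*(-) AT, 5.38 ± 0.17 (n = 5) in *BRAF*(+) AT, 5.26 ± 0.22 (n = 10) in BL and 5.22 ± 0.18 (n = 10) in PTC. In BHL they were 5.18 ± 0.29 (n = 4) in *BRAF*(+) mice and 6.21 ± 2.28 (n = 4) in *BRAF*(-) mice, or 5.07 ± 0.18 (n = 3) without mouse M_946.

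*Cd2*, whose product binds CD48 on partner cells in mice, was at 4.69, 5.04, 5.16, 5.28 and 5.32 in *BRAF*(-) AT, whereas the *BRAF*(+) AT mice had 5.28, 5.64, 6.36, 6.65 and 6.79. It ran from 5.06 over a median of 5.72 to 6.83 in BL and from 4.87 over 5.65 to 6.53 in PTC. The BHL were at 4.94, 5.18, 5.52 and, in mouse M_946, 7.83 in *BRAF*(-) mice and at 4.84, 5.50, 5.58 and 6.38 in *BRAF*(+) mice. *Cd5* was at 5.67 ± 0.19 (SD, n = 5) in *BRAF*(-) AT, 6.18 ± 0.47 (n = 5) in *BRAF*(+) AT, 6.16 ± 0.45 (n = 10) in BL and 5.87 ± 0.25 (n = 10) in PTC. It was at 5.88 ± 0.21 (n = 4) in *BRAF*(+) BHL and at 6.31 ± 1.36 (n = 4) in *BRAF*(-) BHL, or 5.63 ± 0.17 (n = 3) without mouse M_946. For both genes the groups overlapped, and the *BRAF*(+) AT and BL groups spread more widely than *BRAF*(-) AT.

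**Figure D3:**
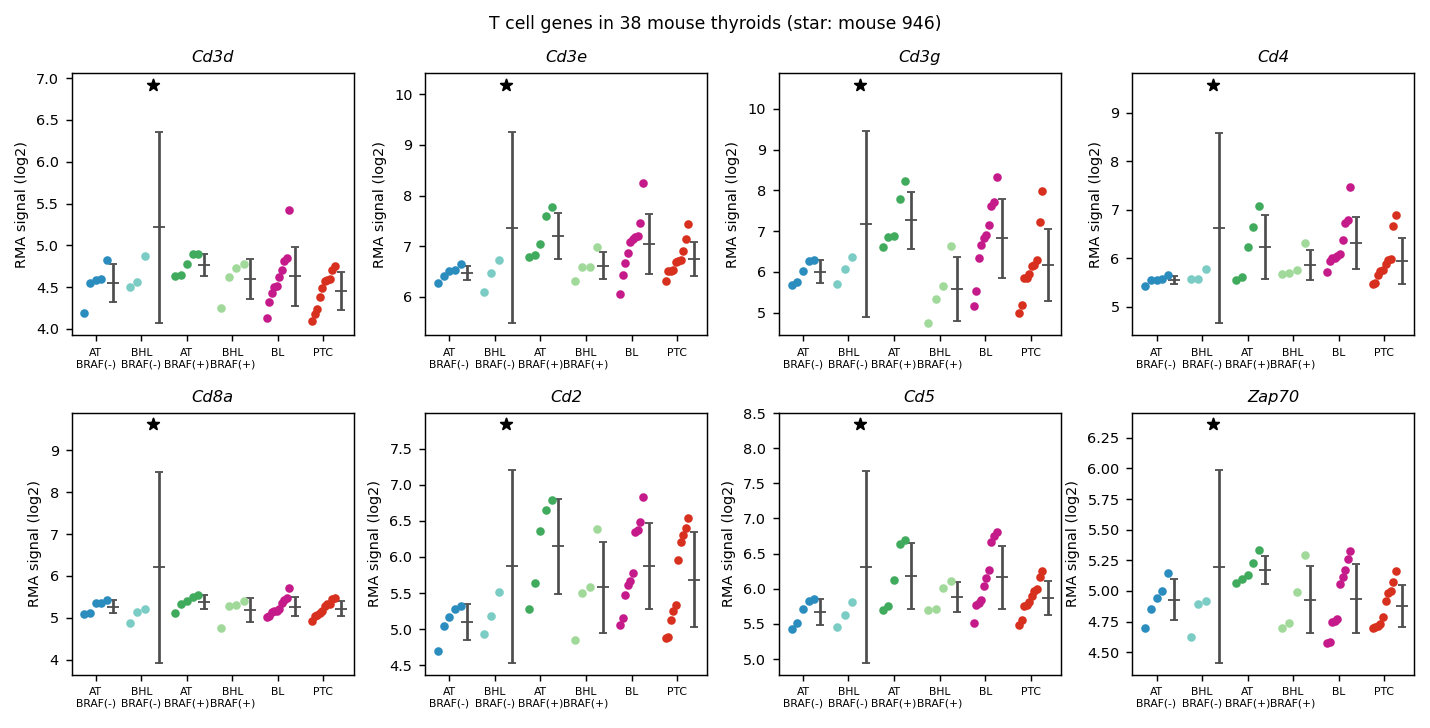
Log2 RMA signal (vertical axis, own scale per gene) of the 8 T cell genes by group, each point 1 mouse, mouse M_946 as a star, and the mean with SD of all mice of the group to the right of the points. *BRAF*(+) AT mice lie above *BRAF*(-) AT mice for *Cd3e* and *Cd3g*, and the star lies above all other mice in each panel.

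When the 6 group means of each member were put in order, neighbours in that order were mostly closer than their spread. Sorting itself brings neighbours close, so this does not say whether groups further apart in the order differ. Without mouse M_946, 0 of 40 neighbouring pairs, 5 for each member, had a gap beyond the larger of their SDs, and *BRAF*(+) AT had the highest mean for 7 members and the second highest, after BL, for *Cd4*. With all mice, 1 of 40 pairs had such a gap, the step in *Cd4* from *BRAF*(-) AT at 5.55 to *BRAF*(+) BHL at 5.86, and *BRAF*(-) BHL had the highest mean for 6 members.

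Whether *BRAF* status went with T cell genes before any lesion was asked in the AT groups with limma, in a model of the 6 groups and sex over the 38 mice. All 8 members had a higher mean signal in *BRAF*(+) than in *BRAF*(-) AT, but 0 of 8 passed an adjusted p of 0.05, beside 0.256% of all 35556 probe sets. The log2 difference was 1.36 for *Cd3g* (standard error 0.63, adjusted p = 0.482 from limma), 1.10 for *Cd2* (standard error 0.42, adjusted p = 0.350 from limma) and 0.73 for *Cd3e* (standard error 0.44, adjusted p = 0.633 from limma). *Cd4* differed by 0.69, *Cd5* by 0.53, *Zap70* by 0.24, *Cd3d* by 0.22 and *Cd8a* by 0.09, and the median over the members was 0.61 beside 0.00 over all probe sets. At an unadjusted p under 0.05 there were 2 members, *Cd3g* and *Cd2*, beside 9.67% of all probe sets. Groups without overlap were found for 2 members, *Cd3e* and *Cd3g*, with *BRAF*(+) above, beside 1.14% of all probe sets in that direction.

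Without mouse M_946, which lies in neither AT group but enters the shared estimate of the spread, the differences stayed close and their errors shrank. *Cd3g* then differed by 1.40 (95% interval 0.46 to 2.33), *Cd2* by 1.12 (0.42 to 1.82), *Cd3e* by 0.76 (0.23 to 1.29) and *Cd4* by 0.72 (0.16 to 1.29). Still 0 of 8 members passed, beside 0.301% of all probe sets, with adjusted p from limma between 0.173 and 0.835. At an unadjusted p under 0.05 there were 5 members beside 10.2% of all probe sets. The interval for *Cd8a* was -0.14 to 0.39, and that for *Cd3d* -0.10 to 0.57.

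Other leukocyte genes were read in the same 2 groups, where 0.256% of all probe sets passed with all mice and 0.301% without mouse M_946. *Rasgrp1*, an activator of RAS downstream of the T cell receptor, differed by 1.23 (adjusted p = 0.2997 from limma), and by 1.26 (adjusted p = 0.0256 from limma) without mouse M_946, when it was the only one of 18 receptor signalling and surface genes to pass. *Fcgr2b*, an inhibitory Fc receptor of B cells and macrophages, passed with 1.43 (adjusted p = 0.0168 from limma), as 1 of 12 macrophage genes. Of the pan-leukocyte genes none of 10 passed with all mice, with *Cd53* at 1.38, and *Cd53*, a leukocyte tetraspanin, passed without mouse M_946, with 1.39 (adjusted p = 0.0282 from limma). The mean of the pan-leukocyte list was 7.07 ± 0.41 (SD, n = 5) in *BRAF*(-) and 8.11 ± 0.66 (n = 5) in *BRAF*(+) AT. The adipocyte list had a lower mean in *BRAF*(+) AT, with 9.45 ± 0.19 (n = 5) in *BRAF*(-) and 8.78 ± 0.43 (n = 5) in *BRAF*(+), and the muscle list was at 5.11 to 10.0 in *BRAF*(-) and at 5.15 to 5.36 in *BRAF*(+) AT. With the means of both lists as covariates, *Cd3g* differed by 1.42, *Cd2* by 1.04, *Cd3e* by 0.78 and *Cd4* by 0.66. *Cd5* differed by 0.56, *Cd3d* by 0.23, *Zap70* by 0.18 and *Cd8a* by 0.06. In that fit 0 of 8 members passed, and the share of all probe sets in it is not given here.

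**Figure D4:**
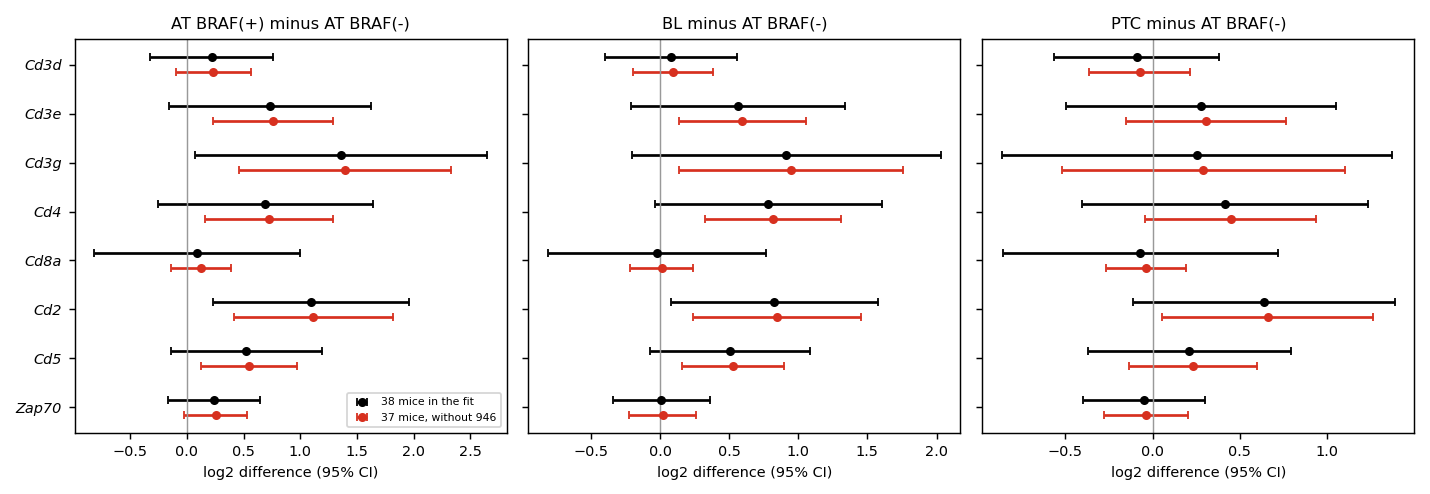
Log2 difference of each T cell gene (point) with its 95% confidence interval from limma (bar) in 3 comparisons with *BRAF*(-) AT, fitted with 38 mice (black) and without mouse M_946 (red). The points nearly coincide and the red bars are shorter, and the bars of *Cd3g* and *Cd2* lie above 0 in the AT comparison in both fits.

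Borderline lesions were compared with *BRAF*(-) AT in the same model. With 38 mice 0 of 8 members passed, beside 11.5% of all probe sets, and 7 of 8 had a positive difference. *Cd3g* differed by 0.91 (standard error 0.55, adjusted p = 0.284 from limma), *Cd2* by 0.83 (standard error 0.37, adjusted p = 0.138 from limma) and *Cd4* by 0.78 (standard error 0.40, adjusted p = 0.204 from limma). *Cd3e* differed by 0.57 and *Cd5* by 0.51, whereas *Cd3d* at 0.08, *Zap70* at 0.01 and *Cd8a* at -0.02 were close to 0. The median over the members was 0.54 beside -0.02 over all probe sets. At an unadjusted p under 0.05 there was 1 member, *Cd2*, beside 27.5% of all probe sets.

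*Cd4* passed in BL once mouse M_946 was left out, with 0.81 (standard error 0.24, adjusted p = 0.0248 from limma). With all mice it was at 0.78 (standard error 0.40), so the error changed more than the difference. It was the only member of the 8 to pass, a share close to the 12.4% of all probe sets. It also passed with 0.84 (adjusted p = 0.0379 from limma) when just the BL and *BRAF*(-) AT mice were fitted. The share of all probe sets in that fit is not given here. For *Cd4* the groups did not overlap, with BL above, as was so for 1.7% of all probe sets. *Cd5* with 0.53 (adjusted p = 0.0508 from limma) and *Cd2* with 0.85 (adjusted p = 0.0565 from limma) came near the threshold, and 5 members beside 28.3% of all probe sets had an unadjusted p under 0.05. *Cd8a* differed by 0.01, with a 95% interval of -0.22 to 0.24.

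Other leukocyte lists in BL are read beside the 11.5% of all probe sets that passed. Of 18 receptor signalling and surface genes 3 rose, *Rasgrp1* by 1.39 (adjusted p = 0.0183 from limma), *Ptpn22*, a phosphatase of lymphocytes, by 1.02 and *Lcp2*, an adaptor also used by myeloid cells, by 0.94. Of 8 transcription factor and homing genes *Il7r*, the interleukin 7 receptor, rose by 1.36 and *Klf2*, which keeps T cells quiescent and is also made by endothelium, fell by 0.42. Of 12 regulatory and checkpoint genes 1 rose, *Tnfrsf18*, by 0.57. None of 14 cytotoxic and NK genes passed, with *Prf1*, perforin, at -0.33 (adjusted p = 0.0649 from limma) and *Ccl5* at 0.999 (adjusted p = 0.112 from limma), and neither did any of 11 thymocyte genes, with *Ptcra* at -0.15 and *Rmnd5a* at -0.15. Without mouse M_946, *Ccl5* rose by 1.02 (adjusted p = 0.0499 from limma), and *Lef1*, a transcription factor of T cells, by 0.43 and *Ccr7*, a lymph node homing receptor, by 0.63 passed as well.

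Lists of other cells were read in BL beside the same share of 11.5%. Of 10 pan-leukocyte genes 4 rose, with *Cd53* by 1.82, *Ptprc*, which encodes CD45, by 1.31 and *Laptm5* by 1.21. Of 12 macrophage genes 6 rose, with *Fcgr2b* by 1.51, *Mrc1* by 0.96 and *Itgam* by 0.92, and of 11 genes of MHC class II and dendritic cells 5 rose, with *Itgax*, which encodes CD11c, by 1.41, *H2-DMa* by 0.999 and *H2-Ab1* by 0.99. Among 9 chemokines of T cell and lymph node areas, *Ccl17*, a ligand of CCR4, rose by 2.22 and *Ccl22* by 1.30, and *Cxcl11*, a ligand of CXCR3, fell by 0.83. *Jchain* of plasma cells rose by 3.14 and *Fcer2a* of B cells by 0.99, each the single one of its list. Of 7 genes of MHC class I presentation none passed, with *Tap1* at 0.42 and *Tap2* at 0.21. In the same comparison 5 of 7 adipocyte genes fell, with *Retn* at -1.45, *Cidec* at -1.33 and *Adipoq* at -1.21, and 2 of 9 thyroid follicular genes fell, with *Dio1* at -1.53 and *Slc5a8* at -1.21. Without mouse M_946, 6 of 10 pan-leukocyte and 7 of 12 macrophage genes rose, beside 12.4% of all probe sets. With the means of the muscle and adipocyte lists as covariates, *Cd3g* differed in BL by 1.09, *Cd4* by 0.90, *Cd2* by 0.87 and *Cd3e* by 0.69. *Cd5* differed by 0.56, *Cd3d* by 0.15, *Cd8a* by -0.00073 and *Zap70* by -0.04. In that fit 0 of 8 passed, and the share of all probe sets in it is not given here. The part of other cells in the T cell values was not tested.

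In PTC the members differed from *BRAF*(-) AT by -0.09 to 0.64. With limma 0 of 8 passed, beside 18.8% of all probe sets, and 0 of 8 had an unadjusted p under 0.05, beside 32.8% of all probe sets. *Cd2* differed by 0.64 (standard error 0.37, adjusted p = 0.228 from limma), *Cd4* by 0.42, *Cd3e* by 0.28 and *Cd3g* by 0.25, while *Cd3d* at -0.09, *Cd8a* at -0.07 and *Zap70* at -0.05 were slightly negative. The median over the members was 0.23 beside -0.02 over all probe sets, and 0.26 without mouse M_946, when *Cd2* alone had an unadjusted p under 0.05, beside 33.5% of all probe sets, and none passed, beside 19.7%.

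The other lists in PTC are read beside the 18.8% of all probe sets that passed. *Rasgrp1* rose by 1.26 and *Ptpn22* by 1.14 as 2 of 18 signalling and surface genes, *Il7r* rose by 1.20 and *Klf2* fell by 0.54 of 8, and *Prf1* fell by 0.40 as 1 of 14 cytotoxic and NK genes. *Tnfrsf18* rose by 0.54. Of 12 macrophage genes 8 rose, with *Fcgr2b* by 1.52, *Mrc1* by 1.15 and *Lyz2*, lysozyme, by 1.07, and of 10 pan-leukocyte genes 3 rose, *Cd53* by 1.94, *Ptprc* by 1.16 and *Laptm5* by 1.13, or 5 of 10 without mouse M_946, beside 19.7% of all probe sets. Of 9 chemokines *Ccl17* rose by 2.20 and *Ccl22* by 1.06, while *Cxcl11* fell by 0.95 and *Cxcl12* by 0.75. Of 11 genes of MHC class II and dendritic cells *Itgax* rose by 1.49 and *H2-DMa* by 0.84. *Fcer2a* of B cells rose by 0.76, and of 7 plasma cell genes *Derl3* fell by 1.09 and *Xbp1* rose by 0.42. Of 9 thyroid follicular genes 6 fell, with *Dio1* at -1.87, *Slc5a8* at -1.62 and *Slc5a5* at -1.31, and of 7 adipocyte genes 5 fell, with *Retn* at -1.40, *Cidec* at -1.25 and *Plin1* at -1.05. Of 11 thymocyte genes none passed with all mice, with *Satb1* at -0.71 and *Ptcra* at -0.21, and without mouse M_946 *Satb1* was at -0.69 (adjusted p = 0.000767 from limma) and *Dntt* at -0.26 (adjusted p = 0.0483 from limma) and both passed.

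PTC and BL were compared directly. All 8 members had lower means in PTC, with a median difference of -0.24 beside 0.00 over all probe sets, but 0 of 8 passed, as did 0% of all probe sets, and 0 of 8 had an unadjusted p under 0.05, beside 2.18%. *Cd3g* had the largest difference, -0.66 (95% interval -1.56 to 0.24), and -1.31 to -0.0046 without mouse M_946, when it alone had an unadjusted p under 0.05, beside 2.33%. A lower level in PTC than in BL was thus not resolved with 10 mice a group. The BL and PTC comparisons above share the *BRAF*(-) AT mice.

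The 18 non-malignant thyroids, AT and BHL together, were then compared by *BRAF* status in a model with lesion type and sex. With all mice 0 of 8 members passed, beside 4.1% of all probe sets, and 0 of 8 had an unadjusted p under 0.05, beside 16.3%. Differences ran from -0.43 for *Cd8a* to 0.42 for *Cd2*, with a median of -0.01 beside 0.02 over all probe sets. Without mouse M_946 all 8 were positive, with a median of 0.44, but 0 of 8 passed, beside 3.42% of all probe sets. *Cd2* then differed by 0.77 (standard error 0.24, adjusted p = 0.0922 from limma), *Cd3e* by 0.49 (standard error 0.16, adjusted p = 0.107 from limma) and *Cd4* by 0.48 (standard error 0.19, adjusted p = 0.189 from limma). At an unadjusted p under 0.05 there were 4 members beside 16.5% of all probe sets.

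The BHL comparisons depended on mouse M_946. *BRAF*(+) against *BRAF*(-) BHL gave negative differences for 8 of 8 members, from -1.60 for *Cd3g* and -1.02 for *Cd8a* to -0.27 for *Zap70*, with a median of -0.69 beside 0.03 over all probe sets. None of the 8 passed with limma, beside 6.62% of all probe sets, and 3 had an unadjusted p under 0.05, beside 19.6%. Without mouse M_946 the median was 0.16 and 6 of 8 were positive, *Cd3g* was at -0.41 and *Cd8a* at 0.12. *BRAF*(-) BHL against *BRAF*(-) AT gave positive differences for 8 of 8 members with a median of 0.85, with 0 of 8 past the threshold, as 0% of all probe sets, and 2 at an unadjusted p under 0.05, beside 4.4%. Without mouse M_946 that median was 0.03.

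The difference between the *BRAF* differences of BHL and AT was tested as an interaction. It was -2.96 for *Cd3g* (standard error 0.95, adjusted p = 0.325 from limma) and negative for all 8 members, with 0 of 8 past the threshold, as 0% of all probe sets, and 5 at an unadjusted p under 0.05, beside 10.2%. Without mouse M_946 *Cd3g* was at -1.80 (standard error 0.71, adjusted p = 0.412 from limma) and *Cd8a* at -0.01, and 1 member had an unadjusted p under 0.05, beside 9.86% of all probe sets. The median over the members was -1.25 with all mice and -0.38 without mouse M_946.

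Sex and age were tested in the same 38 mice. Males were younger, with a median age of 6 months (4 to 11) against 11 months (7 to 24) in females. Age was not in the fit of sex, so a difference by sex is not set apart there from one by age. Males against females gave differences of -0.11 to 0.46 over the members, of which 0 of 8 passed, beside 3.22% of all probe sets, and 0 had an unadjusted p under 0.05, beside 14.8%. *Cd3g* was at 0.46 and, without mouse M_946, at 0.63 (standard error 0.28, adjusted p = 0.266 from limma). It alone then had an unadjusted p under 0.05, beside 14.6% of all probe sets, and 0 of 8 passed, beside 3.1%. Per month of age the members changed by -0.04 to 0.00 log2 units, 0 of 8 passed, as 0% of all probe sets, and 0 had an unadjusted p under 0.05, beside 4.03%. Without mouse M_946 the changes per month ran from -0.0029 for *Cd8a*, which was at -0.042 with all mice, to 0.018 for *Zap70*, and 0 of 8 passed, as 0% of all probe sets.

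How the members moved together was measured over mice after each gene was centred on its group means, for 28 pairs. In 38 mice Pearson's r ran from 0.61 to 0.95 with a median of 0.83, and Spearman's rho from 0.22 to 0.92 with a median of 0.66. After adjustment over the 28 pairs, 28 for r and 27 for rho had an adjusted permutation p under 0.05. Leaving out the 2 mice farthest from the median of the first gene of a pair took the median r to 0.64. Without mouse M_946 r ran from 0.14 to 0.90 with a median of 0.59, and 23 pairs for r and 22 for rho were under 0.05.

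The pairs formed a graded series with *Cd8a* at its low end. *Cd3g* and *Zap70*, at r = 0.49 in the 37 mice, lay next above the pairs with *Cd8a*. In the 37 mice *Cd3e* and *Cd3g* had r = 0.90 and rho = 0.90 (permutation p = 1e-05 for both, the smallest that 100000 permutations give, and 2.5e-05 and 3.1e-05 after adjustment), and r = 0.88 without the 2 farthest mice. *Cd3e* and *Cd4* had r = 0.87 and *Cd4* and *Cd2* r = 0.81. *Cd8a* was in the 7 pairs with the lowest r, from 0.14 with *Cd4* (rho = -0.10, permutation p = 0.422 for r and 0.566 for rho) to 0.45 with *Cd5*. In these mice *Cd8a* spanned just 0.96 log2 units and *Zap70* 0.76, both at low signal, which limits how their r can be read. Of the 7 pairs with *Cd8a*, 2 were under an adjusted p of 0.05 for r in the 37 mice, those with *Cd3e* and *Cd5*, against 7 in the 38 mice.

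**Figure D5:**
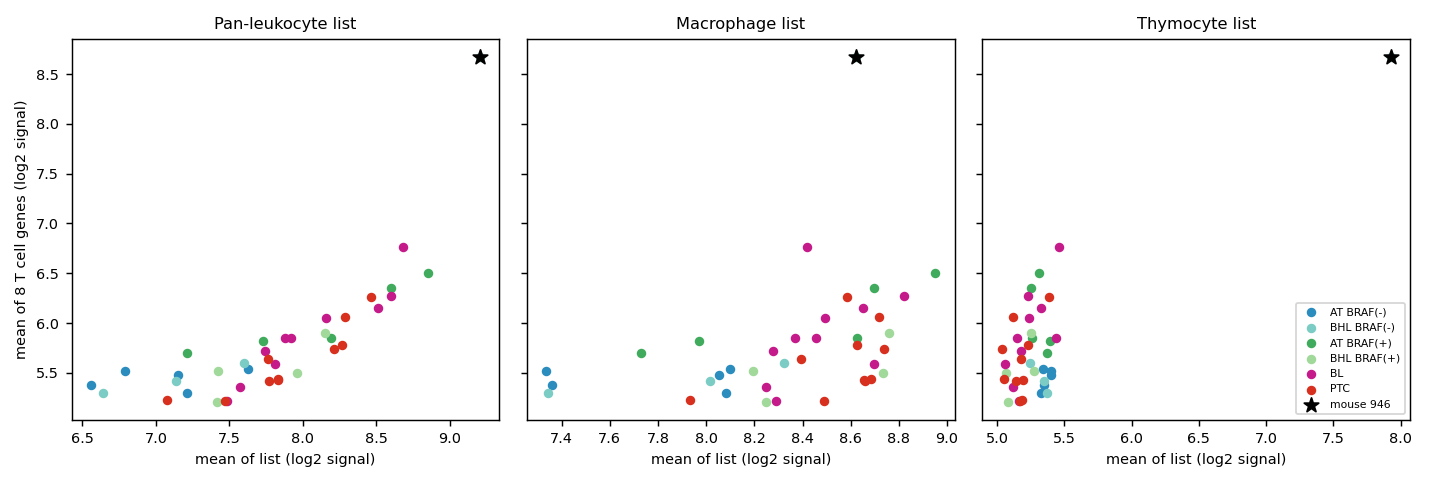
Mean log2 signal of the 8 T cell genes (vertical axis) against the mean of the pan-leukocyte, macrophage and thymocyte lists (horizontal axes) in each of 38 mice, coloured by group, mouse M_946 as a star. Mouse M_946 lies above all others on the vertical axis, at a pan-leukocyte mean of 9.20 and a thymocyte mean of 7.93. The other mice have thymocyte means of 5.04 to 5.46. Its macrophage mean of 8.62 lies within the 7.34 to 8.95 of the other mice.

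The genes most alike to the mean of the 8 members were listed by Pearson's r over mice among all other named genes, as a description. Over 38 mice they were *Lat*, the adaptor that ZAP-70 phosphorylates (r = 0.97), *Tespa1* (0.96), *Cd6* (0.94), *Skap1* (0.94), *Septin1* (0.94), *Cd96* (0.94), *Cd27* (0.94), *Cd28*, the costimulatory receptor (0.94), *Ptprcap* (0.93) and *Acap1* (0.93). Without mouse M_946 they were *Itgal*, the alpha chain of the integrin LFA-1 (0.94), *Tespa1* (0.94), *Lat* (0.92), *Slamf7* (0.92), *Map4k1* (0.92), *Il2rb* (0.92), *Cd96* (0.90), *Ltb* (0.90), *Rasal3* (0.90) and *Ms4a4c* (0.90). *Tespa1*, *Lat* and *Cd96* were in both lists. *Rag1* had r = 0.79 over 38 mice and 0.16 over 37, and *Dntt* 0.76 and -0.06. *Cd247*, of T cell receptor signalling, had 0.79 and 0.45, and the B cell gene *Cd79a* 0.77 and 0.79. *Ptprc* had 0.72 and 0.77, and the macrophage gene *Csf1r* 0.45 and 0.48. Likeness to the members' mean was thus not limited to T cell genes.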

How the data were processed

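GeneChip Mouse Gene 1.0 ST arrays, 1 for each of 38 mice, measured thyroid RNA. The authors deposited log2 values from RMA, whose version is not given in the sources used, for 35556 probe sets, which equalizes the arrays and can reduce shifts shared by most genes. Array medians lay between 6.00 and 6.15. For arrays, the number of mice limits the precision. Gene names came from the platform annotation: 21789 probe sets had 1 symbol, 1621 had several and were not named, and 12146 were not listed there. Of 17 lists besides the members, genes without a single-symbol probe set were left out.

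Groups, sex and age came from the labels. Linear models were fitted to all probe sets with lmFit and eBayes in limma 3.58.1 (R 4.3.3), with 6 groups and sex over 38 mice, or *BRAF* status, lesion and sex over the 18 non-malignant mice, and p-values were adjusted by Benjamini and Hochberg's method over all probe sets with a threshold of 0.05. The fits were tested on simulated data. Correlations used 100000 permutations (Python 3.11.15, scipy 1.17.1).

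Members and lists were chosen with earlier results of these data known. The 8 members were always named, and of each other list the 3 past the threshold with the largest difference or, where none passed, the 2 with the smallest p. The 10 genes most alike to the members' mean were also named. Genes singled out for mouse M_946 were chosen after their values were seen. Alternatives were the flat filter of the study over 38 or 18 mice, a mean above the median probe set, arrays centred on medians, no moderation, trend and robust variance, array weights, no covariate, age, females only, muscle and adipocyte list means as covariates, just the groups compared, and leaving out each mouse. Leaving mouse M_946 out of every fit was added after seeing the data.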

Additional observations from a re-analysis of the deposited data

Results flagged for a closer look

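A mouse far from the rest of its group was found in 8 of 48 sets of values, 1 for each member and group, by Dixon's test, of which chance alone gives about 1 in 20. Of these, 7 were mouse M_946 among the 4 *BRAF*(-) BHL, where its signal was far above the next mouse. It had 6.92 for *Cd3d* (next mouse 4.87), 10.18 for *Cd3e* (6.72), 10.58 for *Cd3g* (6.36), 9.57 for *Cd4* (5.77), 9.62 for *Cd8a* (5.21), 8.34 for *Cd5* (5.81) and 6.36 for *Zap70* (4.92). The other was mouse M_958 among the 4 *BRAF*(+) BHL, with 6.31 for *Cd4* (next mouse 5.76).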

How the results depend on the processing

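The number of members past the threshold was 0 in all 10 comparisons and stayed 0 in 296 of 298 alternatives. The exceptions were BL against *BRAF*(-) AT with just the groups compared, and with mouse M_946 left out of the fit, in each of which 1 member passed, *Cd4*. In PTC against BL, the interaction, *BRAF*(-) BHL against *BRAF*(-) AT and age, no probe set of the whole array passed in the main fit. A count of 0 members there is thus not particular to T cell genes. For most alternatives the share of all probe sets that passed is not given here. The flat filter over 38 mice kept 4388 probe sets and 4 members, and a mean above the median probe set kept 2 members, so those fits do not speak for the others. Each member had 1 probe set, so a mean over probe sets gives no other value. No paired analysis was possible because mouse numbers are not shared between groups.

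Of 80 differences, 8 members in 10 comparisons, none past the threshold, 30 changed sign under some alternative, and none of the 8 did so for *BRAF* status in AT, PTC against BL or the interaction. The sign of the 30 is therefore not settled by these data. The changes in both BHL comparisons came from leaving out mouse M_946, and the cause of the others was not tested. For *BRAF* status in the non-malignant thyroids, the sign changed with muscle and adipocyte list means as covariates (*Cd3d* 0.40, *Cd3g* 1.40, *Cd4* 0.85, *Cd8a* 0.17, *Zap70* 0.33), arrays centred on medians (*Cd3e* -0.0024), age as a covariate (*Cd3e* -0.058), females alone (*Cd3e* -0.15, *Cd5* -0.070), array weights (*Cd3g* 0.22, *Cd4* 0.18, *Zap70* 0.046) and no covariate (*Cd4* 0.036, *Zap70* 0.015). For BL against *BRAF*(-) AT, the sign changed with array weights (*Cd8a* 0.0038), females alone (*Cd8a* 0.022, *Zap70* -0.12), mouse M_946 left out (*Cd8a* 0.011), arrays centred on medians (*Zap70* -0.036) and muscle and adipocyte list means as covariates (*Zap70* -0.036). For males against females, the sign changed with arrays centred on medians (*Cd3d* -0.013), age as a covariate (*Cd3d* -0.076, *Cd4* -0.083, *Cd5* -0.066, *Zap70* 0.014), muscle and adipocyte list means as covariates (*Cd3d* -0.027, *Cd4* -0.0060) and array weights (*Cd3e* 0.058, *Zap70* 0.022). For age per month, the sign changed with females alone (*Zap70* -0.0034).

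Leaving out each mouse in turn changed the sign of these differences at least once. For *BRAF* status in the non-malignant thyroids the range was -0.27 to 0.11 for *Cd3d*, -0.082 to 0.49 for *Cd3e*, -0.23 to 0.58 for *Cd3g*, -0.14 to 0.48 for *Cd4*, -0.60 to 0.13 for *Cd8a*, -0.017 to 0.40 for *Cd5* and -0.064 to 0.17 for *Zap70*. For PTC against *BRAF*(-) AT the range was -0.11 to 0.0089 for *Zap70*. For BL against *BRAF*(-) AT the range was -0.019 to 0.16 for *Cd3d*, -0.084 to 0.033 for *Cd8a* and -0.049 to 0.067 for *Zap70*. For *BRAF* status in BHL the range was -1.23 to 0.20 for *Cd3e*, -1.18 to 0.24 for *Cd4*, -1.49 to 0.12 for *Cd8a*, -0.62 to 0.39 for *Cd2*, -0.76 to 0.27 for *Cd5* and -0.48 to 0.12 for *Zap70*. For *BRAF*(-) BHL against *BRAF*(-) AT the range was -0.032 to 1.41 for *Cd3e*, -0.19 to 1.37 for *Cd8a*, -0.024 to 1.01 for *Cd5* and -0.11 to 0.50 for *Zap70*. For males against females the range was -0.035 to 0.12 for *Cd3d*, -0.11 to 0.21 for *Cd3e*, -0.030 to 0.29 for *Cd4*, -0.17 to 0.065 for *Cd8a*, -0.015 to 0.22 for *Cd5* and -0.047 to 0.092 for *Zap70*. For age per month the range was -0.025 to 0.0071 for *Cd3d*, -0.035 to 0.0087 for *Cd2* and -0.0070 to 0.018 for *Zap70*.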
